A study of Mus musculus with 10 samples.

Results

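The genes described are 10 members of the lysosomal protein breakdown machinery of mouse microglia, taken by gene symbol from the 18292 symbols of the 10 count tables. They are the cysteine cathepsins *Ctsb*, *Ctsc*, *Ctsk*, *Ctsl*, *Ctss* and *Ctsz*, the aspartic protease *Ctsd*, the asparagine-specific protease legumain (*Lgmn*), the secreted inhibitor cystatin C (*Cst3*) and the cytosolic inhibitor cystatin B (*Cstb*). All 10 had a row, and 9 passed the filter on low counts and were tested. *Ctsk* did not pass it. Microglia were compared between the adult mouse brain, a mixed glial *in vitro* culture and cultured brain slices, all from C57BL/6 mice, with 2 libraries in each of 5 groups. Adult microglia came straight from brains of mice aged 10 to 15 weeks. *In vitro* microglia were collected from the medium of cultures begun from 2-day-old pups, at day 22. Slice microglia came from brain slices of 1- to 4-day-old pups kept in culture for 1 day, 1 week or 3 weeks, and several slices were pooled where needed. Live cells were sorted as CD11b high and CD45 intermediate and sequenced with the 10x Genomics 3′ kit. Because every cultured group began from neonates and the adult group did not, age at collection and culture cannot be told apart in any comparison with adult.

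Cathepsins are made as inactive precursors, sorted to lysosomes largely through mannose 6-phosphate receptors, and matured there by cleavage. Lysosomes of microglia use them to degrade engulfed material, and *Ctss* also trims the invariant chain during antigen presentation. Cystatins bind the active site of cysteine cathepsins such as CTSB, CTSL and CTSS, and cystatin C also blocks legumain, while the aspartic protease CTSD is not a target of cystatins. In the adult brain *Cst3* is among the abundant transcripts of microglia.

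The tables held 19059 cells after filtering, 61 to 3799 per library, with 385373 to 39689540 unique molecular identifiers (UMIs, 1 per captured transcript) per library and medians of 1858 to 13966 UMIs per cell. No pair of libraries shared more than 23 cell barcodes, and the largest share of the smaller library was 2.94%, in another pair with 2 shared barcodes. All 10 microglial markers were detected in every library, with a summed level of 60575 to 61392 CPM (UMIs of a gene scaled to a common library total) in adult, 10464 to 11742 at 1 day, 19633 to 23702 at 1 week, 30532 to 38628 at 3 weeks and 15296 to 17440 *in vitro*. *In vitro*, the defining markers *Sall1* and *Siglech* were close to 0. The summed level of 8 neutrophil markers was 7570 to 21936 CPM at 1 day and 955 to 39336 CPM at 1 week, and at most 7.99 CPM in the other groups, where 3 to 6 of the 8 markers were at 0 in a library. The summed level of 5 markers of border macrophages was 344 to 397 CPM *in vitro*, 54.2 to 63.4 at 1 day, 75.3 to 104 at 1 week, 17.6 to 30.6 at 3 weeks and 4.27 to 6.38 in adult. All 5 were detected in both *in vitro* libraries, and 0 to 2 of them were at 0 in each of the others. Haemoglobin transcripts reached 1846 CPM in adult replicate 1 and 3460.2 CPM in slice 1 day replicate 1 and were at most 1.02 CPM in the other 8 libraries.

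Levels of genes below are CPM of the counts summed over the cells of a library, scaled by trimmed mean of M values (TMM), and are given as replicate 1 and then replicate 2. Fold changes, standard errors (SE) and adjusted *p*-values come from edgeR's quasi-likelihood test over 12157 genes. A gene was called when its adjusted *p* was below 0.05 and its fold change above 1.5. Adult cells held fewer UMIs than cultured cells, so a count of UMIs per cell without scaling moved the median of all genes by 2.04 (*in vitro*), 1.49 (1 day), 1.10 (1 week) and 1.05 (3 weeks) on the log2 scale against adult. The changes below are therefore relative to the other genes of a library. In sums over sorted cells alone, fewer cells that express a gene and less RNA of it per cell cannot be told apart. For *Cst3*, *Ctsd* and *Cstb* values per cell are given further below.

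*Cst3* had the largest fall among the 9 tested genes in each cultured group against adult. It is a small secreted protein that binds cysteine proteases outside and inside the cell. It lies on chromosome 2 from 148871722 to 148875692 on the minus strand (GRCm38, GENCODE M21). The adult libraries held 63304 and 52692 CPM, the slices 3322 and 1882 after 1 day, 5391 and 6374 after 1 week and 10637 and 9699 after 3 weeks, and the *in vitro* cultures 3565 and 3327. No cultured library came near the adult ones. In the fit *Cst3* fell by 4.48 on the log2 scale at 1 day (SE 0.27, edgeR adjusted *p* = 1.45e-06, a 22.3-fold difference), by 3.30 at 1 week (9.86-fold), by 2.51 at 3 weeks (5.70-fold) and, *in vitro*, fell by 4.07 (16.8-fold). Within the slices it rose from 1 day to 3 weeks by 1.97 (SE 0.24, edgeR adjusted *p* = 0.000456), which left the 3-week mean of 10168 ± 663 CPM (SD, n = 2) below the adult mean of 57998 ± 7504 CPM. The direction against adult was the same when UMIs per cell were used without scaling.

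*Cstb* moved the other way. It encodes the stefin that blocks cathepsins which leak into the cytosol, and lies on chromosome 10 from 78425669 to 78427622 on the plus strand. Its level was 144 and 146 CPM in adult and the lowest of the 5 groups there. In slices it was 1080.1 and 1032 CPM after 1 day, 408 and 509 after 1 week and 611 and 433 after 3 weeks, and the *in vitro* cultures held 1184 and 1299. All 8 cultured libraries lay above both adult libraries. *Cstb* rose 7.27-fold at 1 day (log2 fold change 2.86, SE 0.20, edgeR adjusted *p* = 2.49e-06), 3.15-fold at 1 week, 3.59-fold at 3 weeks and 8.55-fold *in vitro* (log2 fold change 3.10, SE 0.20, edgeR adjusted *p* = 6.96e-07). From 1 day to 1 week it fell by 1.21 on the log2 scale (edgeR adjusted *p* = 0.00472), and 1 week and 3 weeks differed by 0.19, which was not called (adjusted *p* = 0.625). Over the 10 libraries the log2 levels of both inhibitors had a Pearson correlation of −0.94, where the libraries share the 5 groups, so the value is a description.

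**Figure D1:**
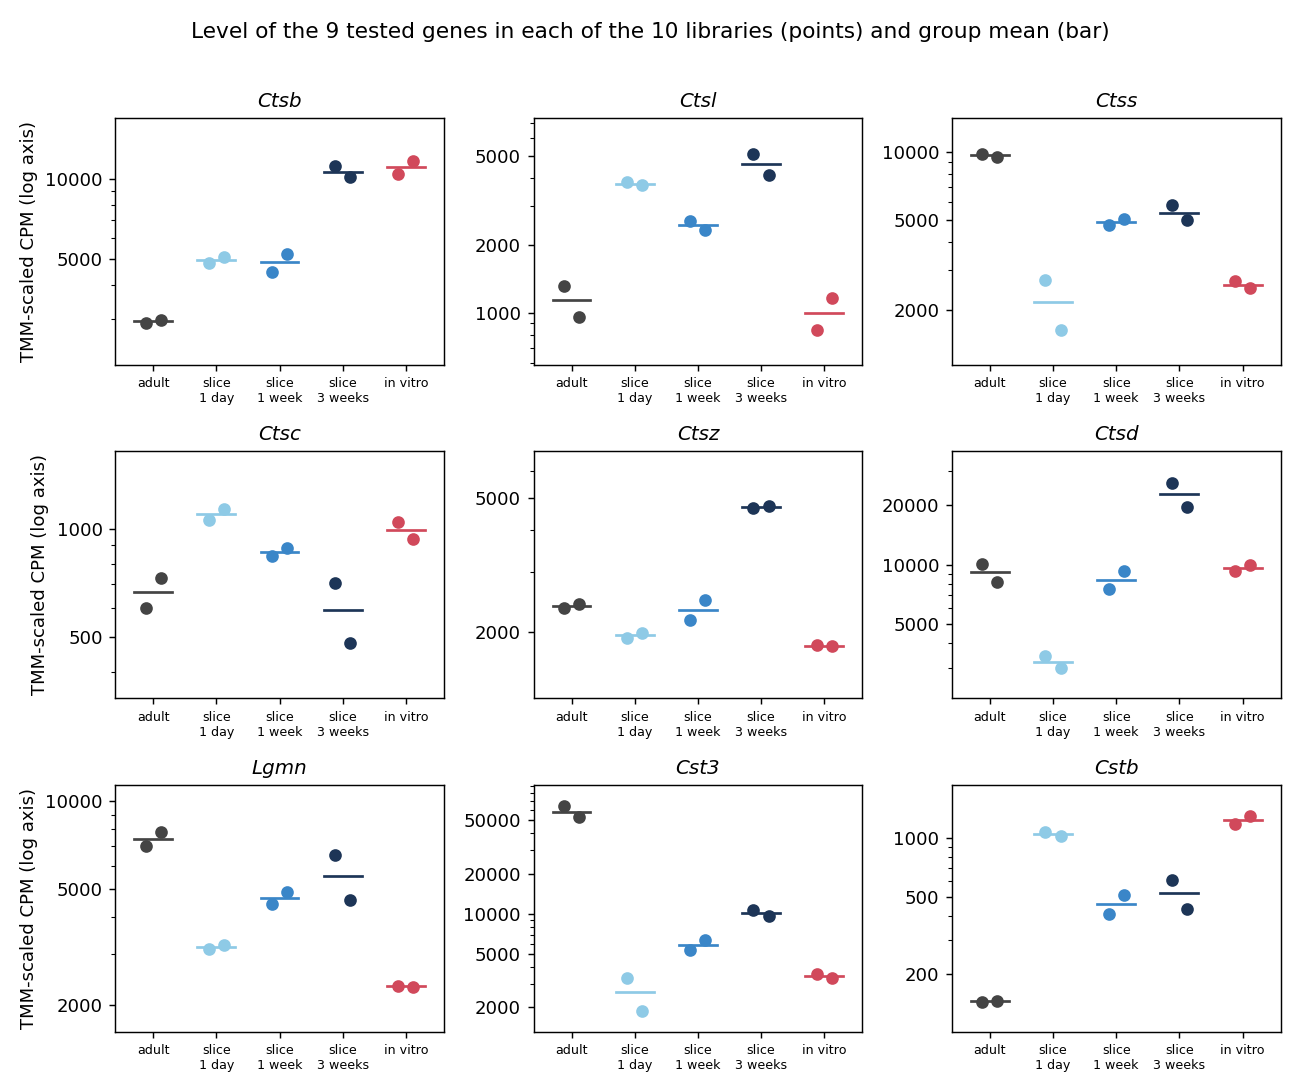
Level of each of the 9 tested genes in each of the 10 libraries, in TMM-scaled CPM on a log axis. Points are libraries (replicate 1 left, replicate 2 right), bars are group means, and the panels have different ranges. *Cst3*, *Ctss* and *Lgmn* are highest in adult, *Cstb* is lowest there, and *Ctsd* and *Ctsz* are highest in slices after 3 weeks.

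Among the cysteine cathepsins, *Ctsb* rose in every cultured group. CTSB is an abundant lysosomal protease with both endopeptidase and carboxypeptidase activity. Its gene spans 63122462 to 63145923 on the plus strand of chromosome 14. The adult libraries had 2885 and 2974 CPM. At 1 day the slices had 4844 and 5119.5 CPM, at 1 week 4500.1 and 5245 CPM, and at 3 weeks 11162 and 10143 CPM, and *in vitro* it was 10427 and 11708 CPM. The 3-week and *in vitro* libraries formed the upper level, the 1-day and 1-week libraries an intermediate one, and adult the lowest. Against adult *Ctsb* rose 1.70-fold at 1 day and 1.66-fold at 1 week. The rise was larger at 3 weeks (3.64-fold, log2 fold change 1.86, SE 0.15, edgeR adjusted *p* = 1.16e-05) and *in vitro* (3.78-fold, log2 fold change 1.92, SE 0.15, edgeR adjusted *p* = 2.83e-06). The last 2 groups differed by 0.06 on the log2 scale, with a 95% interval from −0.26 to 0.37. The call at 1 week rests on slice 1 week replicate 2, without which the log2 fold change was 0.58 and under the limit on fold change.

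*Ctsl* was higher in slice culture than in adult and *in vitro* microglia. CTSL is an endopeptidase that also processes other lysosomal enzymes, and its gene lies on chromosome 13 from 64359337 to 64370890 on the minus strand. Adult microglia held 1321 and 963 CPM and *in vitro* microglia 842 and 1166 CPM. The slice libraries held 3806 and 3703 CPM after 1 day, 2569 and 2331 after 1 week and 5089.5 and 4089 after 3 weeks. Every slice library lay above the adult and *in vitro* libraries, which overlapped each other. *Ctsl* rose against adult at 1 day (3.29-fold, edgeR adjusted *p* = 8.56e-05), 1 week (2.15-fold, adjusted *p* = 0.00298) and 3 weeks (4.02-fold, adjusted *p* = 7.12e-05). *In vitro* its log2 difference from adult was −0.19 with a 95% interval from −0.64 to 0.27, but in UMIs per cell it was 1.94 and called. Per cell the *in vitro* libraries held 10.9 and 15.5 *Ctsl* UMIs, above the 4.75 and 2.12 of adult, and replicate 2 exceeded slice 1 week replicate 2, which held 14.9. *In vitro* *Ctsl* was 4.57-fold lower than in slices after 3 weeks (log2 fold change −2.19, SE 0.21, edgeR adjusted *p* = 3.75e-05).

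*Ctss*, the cathepsin most tied to antigen-presenting cells and active also at neutral pH, was highest in adult. Its gene runs from 95526786 to 95556403 on the plus strand of chromosome 3, next to *Ctsk*. Levels were 9795 and 9527 CPM in adult, 2701 and 1632 at 1 day, 4766 and 5028 at 1 week, 5812 and 4974 at 3 weeks and 2685 and 2487 *in vitro*. All cultured libraries were below the adult ones. Relative to the other genes *Ctss* fell in the 4 cultured groups, by 2.16 on the log2 scale at 1 day (SE 0.22, edgeR adjusted *p* = 2.62e-05), 0.98 at 1 week (adjusted *p* = 0.00627), 0.84 at 3 weeks (adjusted *p* = 0.0098) and 1.90 *in vitro* (adjusted *p* = 3.9e-05), whereas in UMIs per cell the sign flipped at 1 week (0.21), 3 weeks (0.27) and *in vitro* (0.27), the difference at 1 day was −0.66, and none of these 4 was called. Per cell, adult libraries held 35.2 and 21.0 *Ctss* UMIs and *in vitro* libraries 34.6 and 33.0. The call at 3 weeks was lost without adult replicate 1 (adjusted *p* = 0.0608) or without slice 3 weeks replicate 2 (adjusted *p* = 0.061), and the call at 1 week was lost without slice 1 week replicate 1 (adjusted *p* = 0.0866).

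*Ctsc* and *Ctsz* were each called in 3 of the 6 main comparisons. CTSC is the dipeptidyl peptidase that activates granule serine proteases in myeloid cells, and its gene lies on chromosome 7 from 88278085 to 88310888 on the plus strand. *Ctsc* was 603 and 729 CPM in adult, 1061 and 1135 at 1 day, 843 and 883 at 1 week, 705 and 482 at 3 weeks and 1044 and 936 *in vitro*. The 1-day, 1-week and *in vitro* libraries lay above the adult ones, and the 3-week libraries overlapped them. The rise at 1 day was called (1.65-fold, SE 0.19 of log2, edgeR adjusted *p* = 0.00838) but not without adult replicate 1 (adjusted *p* = 0.0553). *In vitro* the fold change of 1.49 was just under the limit, at an adjusted *p* of 0.0249, and it was 0.64 on the log2 scale and called with DESeq2 size factors. Levels at 3 weeks were below those at 1 day by 0.89 on the log2 scale (edgeR adjusted *p* = 0.00661), a call lost without slice 1 day replicate 2 (adjusted *p* = 0.055).

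CTSZ is a carboxypeptidase found mainly in myeloid cells, with its gene on chromosome 2 from 174427493 to 174439039 on the minus strand. *Ctsz* held 2354 and 2424 CPM in adult, 1914 and 1986 at 1 day, 2164 and 2492 at 1 week, 4664 and 4737 at 3 weeks and 1823 and 1814 *in vitro*. Slices after 3 weeks stood apart from all other libraries, which lay between 1814 and 2492 CPM. *Ctsz* rose 1.97-fold at 3 weeks against adult (log2 fold change 0.98, SE 0.13, edgeR adjusted *p* = 0.000336) and was 2.58-fold lower *in vitro* than at 3 weeks (adjusted *p* = 4.24e-05). Against adult the log2 difference was −0.29 at 1 day and −0.04 at 1 week (adjusted *p* = 0.0862 and 0.87), and −0.39 *in vitro* (adjusted *p* = 0.0282), under the limit on fold change. In UMIs per cell these 3 differences turned sign and were called (1.26, 1.16 and 1.79).

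*Ctsk*, the collagen-degrading cathepsin known from osteoclasts, was close to absent. It had 6 and 2 UMIs in the adult libraries, 0 and 2 at 1 day, 0 and 0 at 1 week, 1 and 0 at 3 weeks and 20 and 69 *in vitro*. At most 0.485% of the cells of a library held a UMI of it. With 3 counts as the smallest detectable number, a count of 0 allows up to 7.78 CPM in the smaller 1-week library and up to 0.134 CPM in slice 3 weeks replicate 2. No comparison of *Ctsk* was made.

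*Ctsd*, the lysosomal aspartic protease that degrades a broad range of proteins and processes other enzymes, had opposite changes at the start and the end of slice culture. Its gene lies on chromosome 7 from 142375911 to 142388038 on the minus strand. The adult libraries held 10111 and 8173 CPM and the *in vitro* libraries 9321 and 9916 CPM. Slices held 3448 and 3002 CPM after 1 day, 7535 and 9244 after 1 week and 25962 and 19599.9 after 3 weeks. The 1-day libraries were below and the 3-week libraries above every other library, and the adult libraries overlapped both the 1-week and the *in vitro* libraries. *Ctsd* was 2.83-fold lower at 1 day than in adult (SE 0.19 on the log2 scale, edgeR adjusted *p* = 0.000102) and 2.49-fold higher at 3 weeks (log2 fold change 1.32, SE 0.19, edgeR adjusted *p* = 0.000413). Slices after 3 weeks exceeded slices after 1 day 7.06-fold (log2 fold change 2.82, SE 0.20, edgeR adjusted *p* = 5.78e-05). In UMIs per cell the difference at 1 day was −0.0052 on the log2 scale and not called, and the difference of 3 weeks from 1 day was 2.40 and called.

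The sequence before the start site is shown for the protease with the largest change over time in slices and, for contrast, for *Ctss*, which stayed below adult. Both are the 250 bases upstream of the RefSeq start site, written 5′ to 3′ on the gene's strand, with CACGTG in capitals, the palindromic E-box core that transcription factors of the TFEB and TFE3 family bind. The *Ctsd* window is chr7:142387828-142388077 on the minus strand of GRCm38.p6 and holds 2 copies, which begin 245 and 98 bases before the start. The GENCODE M21 span of *Ctsd* begins farther upstream and covers part of this window.
Ctsd: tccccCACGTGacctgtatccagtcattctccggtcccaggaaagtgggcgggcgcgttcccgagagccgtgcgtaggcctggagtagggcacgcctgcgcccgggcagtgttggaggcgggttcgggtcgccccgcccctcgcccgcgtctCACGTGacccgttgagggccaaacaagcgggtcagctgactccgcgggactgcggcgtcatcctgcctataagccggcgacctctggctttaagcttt
Ctss: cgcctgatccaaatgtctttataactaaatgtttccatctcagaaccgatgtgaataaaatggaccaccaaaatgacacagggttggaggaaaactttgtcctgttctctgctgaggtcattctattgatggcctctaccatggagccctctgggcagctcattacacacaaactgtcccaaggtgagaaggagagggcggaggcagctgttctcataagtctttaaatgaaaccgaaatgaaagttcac
The *Ctss* window, chr3:95526536-95526785 on the plus strand, does not contain these letters. Of the 10 genes, 8 had a window in the RefSeq table, and *Ctsd*, *Ctsl* and *Lgmn* held CACGTG on either strand. *Lgmn* had 2 windows, and only the one that lies wholly within its GENCODE span held the letters. The *Ctsl* window also lies wholly within the GENCODE span of its gene. Among all 32851 windows of this length, 1978 (6.02%) held it at least once and 141 (0.429%) held 2 or more copies. A match in a window is a description of the sequence and not evidence of binding.

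*Lgmn*, like *Ctss*, was highest in adult. Legumain cleaves after asparagine and converts several cathepsins from their single-chain to their 2-chain form. Its gene lies on chromosome 12 from 102394084 to 102439813 on the minus strand. It held 7007 and 7848 CPM in adult, 3106 and 3204 at 1 day, 4439 and 4866 at 1 week, 6535 and 4569 at 3 weeks and 2331 and 2314 *in vitro*. All cultured libraries lay below both adult libraries, and slice 3 weeks replicate 1 came closest. Relative to the other genes *Lgmn* fell by 1.24 on the log2 scale at 1 day (SE 0.18, edgeR adjusted *p* = 0.000233), 0.68 at 1 week (adjusted *p* = 0.0156) and 1.68 *in vitro* (SE 0.18, adjusted *p* = 2.51e-05), but in UMIs per cell the sign flipped in these groups (0.33, 0.54 and 0.52) and no difference was called. At 3 weeks the difference of −0.42 was not called (adjusted *p* = 0.0808, 95% interval from −0.81 to −0.03), though it was called without slice 3 weeks replicate 1 (−0.66). The call at 1 week was lost without adult replicate 2 (adjusted *p* = 0.0693) or without slice 1 week replicate 1 (adjusted *p* = 0.168).

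Counted over the 9 tested genes, the comparisons with adult asked how far each culture differs from freshly isolated microglia. At 1 day 4 genes rose (*Ctsb*, *Ctsc*, *Ctsl*, *Cstb*) and 4 fell (*Ctsd*, *Ctss*, *Lgmn*, *Cst3*), where 50.2% of all tested genes were called, 24.9% higher and 25.3% lower. At 1 week 3 rose (*Ctsb*, *Ctsl*, *Cstb*) and 3 fell (*Ctss*, *Lgmn*, *Cst3*), against 28.6% of all genes (15% higher and 13.6% lower). After 3 weeks 5 rose (*Ctsb*, *Ctsd*, *Ctsl*, *Ctsz*, *Cstb*) and 2 fell (*Ctss*, *Cst3*), against 35.4% of all genes (17.9% higher and 17.5% lower). *In vitro* 2 rose (*Ctsb*, *Cstb*) and 3 fell (*Ctss*, *Lgmn*, *Cst3*), against 50.8% of all genes (22.4% higher and 28.5% lower). The share *in vitro*, 5 of 9, was near that of all genes. The part of the border macrophage markers, which were highest *in vitro*, was not tested. The median log2 change of the 9 genes was −0.29 at 1 day, −0.04 at 1 week, 0.98 at 3 weeks and −0.19 *in vitro*, and that of all genes was −0.06, −0.08, −0.03 and −0.11. These comparisons share the adult libraries. In UMIs per cell 5 rose and 1 fell at 1 day, where 67.9% of all genes rose and 3.49% fell. In that scaling 6 rose and 1 fell at 1 week (44% and 1.35% of all genes), at 3 weeks (55.9% and 2.76%) and *in vitro* (80.3% and 4.7%), so most of the genes called there rose, whether among the 9 or not. With DESeq2 size factors *Ctsc* was also called higher *in vitro*. The labels put adult replicate 1 and slice 3 weeks replicate 1 under the study label TST11200 and the other libraries under TST11247. TST11247 leaves 1 adult and 1 slice 3 weeks library, which the fit assumes to vary like the other groups. Under that assumption 8, 6 and 5 genes were called at 1 day, 1 week and *in vitro*. The comparison of 3 weeks with adult is then 1 library against 1, with no replicate in either arm, and its log2 differences of −0.78 for *Lgmn* and −0.60 for *Ctsc* are given as values of those libraries.

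**Figure D2:**
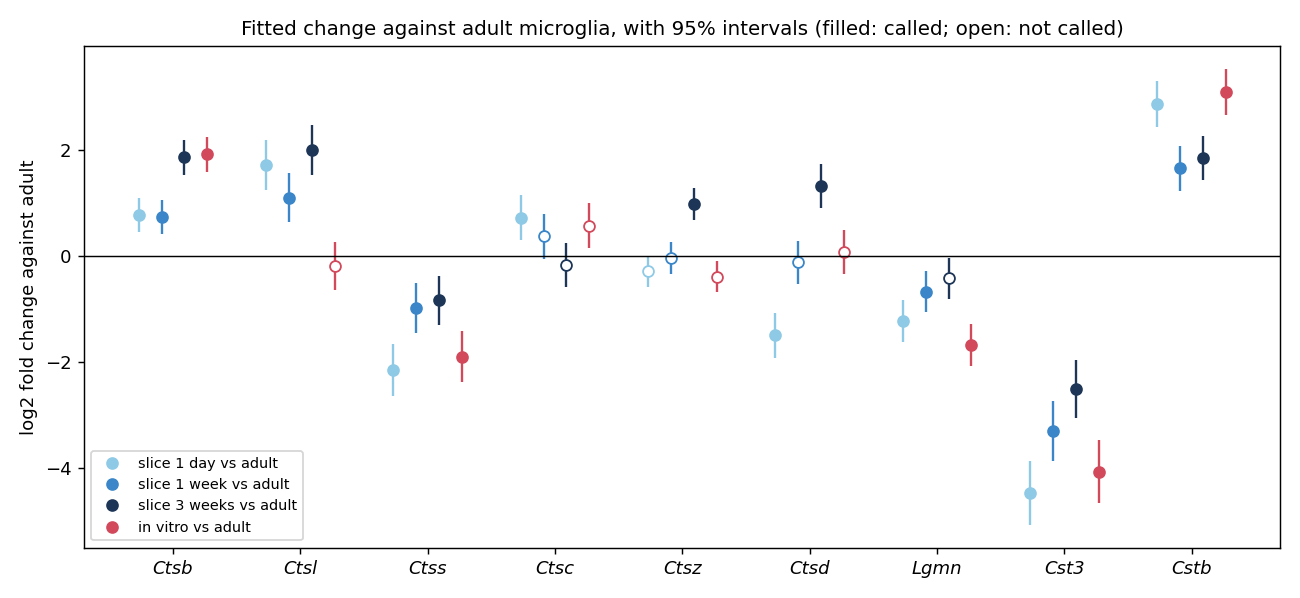
Fitted log2 fold change of each tested gene against adult, with 95% intervals, for the 3 slice times and for *in vitro* culture. Filled points were called (adjusted *p* under 0.05 and fold change over 1.5) and open points were not; *Ctss*, *Lgmn* and *Cst3* lie below 0 and *Ctsb* and *Cstb* above 0 in all 4 comparisons, and in UMIs per cell *Ctss* and *Lgmn* lie above 0 in 3 and 4 of them.

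Time in slice culture was read from 3 weeks against 1 day. All slices began from neonates, so time in culture and age of the cells cannot be told apart here either. Of the 9 genes 6 rose and 2 fell, where 26.7% of all tested genes were called (13.9% higher and 12.8% lower). *Ctsd*, *Cst3* (3.91-fold), *Ctss* (2.49-fold, edgeR adjusted *p* = 0.00168), *Ctsz* (2.41-fold, adjusted *p* = 0.000208), *Ctsb* (2.14-fold, adjusted *p* = 0.000617) and *Lgmn* (1.76-fold, adjusted *p* = 0.00692) rose, and *Ctsc* and *Cstb* (2.02-fold lower, adjusted *p* = 0.00287) fell. *Ctsl* differed by 0.29 on the log2 scale with a 95% interval from −0.17 to 0.74, and by −0.14 in UMIs per cell. The median was 1.10, against 0.05 over all genes. Leaving out all cells of 2 or more neutrophil or monocyte marker UMIs keeps 1 library at 1 day and removes 447 of its 518 cells. That arm then has no replicate, so only log2 differences are given and no call is read. They were 1.47 for *Cst3*, 1.03 for *Ctss*, 0.96 for *Ctsb*, 0.75 for *Lgmn*, −0.89 for *Ctsc* and −1.28 for *Cstb*. These genes, *Ctsd* and *Ctsz* kept the signs of the fit on all cells. In UMIs per cell 4 were called, with *Ctsd* and *Cst3* higher and *Ctsc* and *Cstb* lower, where 2.7% of all genes were higher and 17% lower. From 1 day to 1 week *Ctsd* (2.60-fold), *Ctss* (2.26-fold) and *Cst3* (2.26-fold) rose and *Cstb* fell, where 10.2% of all genes were called (4.91% higher and 5.25% lower). From 1 week to 3 weeks *Ctsb* (2.19-fold), *Ctsd* (2.72-fold), *Ctsl* (1.87-fold) and *Ctsz* (2.02-fold) rose and none of the 9 fell, where 5.72% of all genes were called (2.23% higher and 3.49% lower). The rise of *Lgmn* from 1 day to 3 weeks was lost without slice 1 day replicate 1 or 2 (adjusted *p* = 0.0581 and 0.0562), and without slice 3 weeks replicate 1 it was 0.53 on the log2 scale, under the limit.

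The comparison of *in vitro* culture with slices after 3 weeks held culture time about equal. Here 6 of the 9 genes were lower *in vitro* (*Ctsl*, *Ctsz*, *Ctsd*, *Lgmn*, *Ctss*, *Cst3*) and 2 were higher (*Cstb* and *Ctsc*), where 33.2% of all genes were called (13.3% higher and 19.9% lower). *Cst3* was 2.95-fold, *Lgmn* 2.39-fold, *Ctsd* 2.37-fold and *Ctss* 2.09-fold lower, with edgeR adjusted *p* from 0.000427 to 0.00322. *Cstb* was 2.38-fold higher (adjusted *p* = 0.000551) and *Ctsc* 1.67-fold higher (adjusted *p* = 0.0115). The call of *Ctsc* was lost without *in vitro* replicate 1 (adjusted *p* = 0.0609), and without slice 3 weeks replicate 2 the log2 difference was 0.55. The median was −1.24, against −0.10 over all genes. In UMIs per cell 4 were called, with *Ctsb*, *Ctsc* and *Cstb* higher and *Ctsl* lower *in vitro*, and the sign of *Ctss* flipped (0.0024), where 52.7% of all genes were higher and 5.54% lower. *In vitro* culture differed from 1 day of slice culture in 3 of the 9 genes, with *Ctsb* and *Ctsd* higher and *Ctsl* lower, where 31.9% of all genes were called (13.3% higher and 18.6% lower). Against 1 week it differed in 6, with *Ctsb* and *Cstb* higher and *Ctsl*, *Ctss*, *Lgmn* and *Cst3* lower, where 16.2% were called (6.2% higher and 10% lower).

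Ordered by mean level, 12 of the 36 neighbouring pairs of groups over the 9 genes differed by the same test. No such count was made over all tested genes, so numbers of neighbouring pairs have no background here. For *Cst3* and *Ctss* the order was adult, 3 weeks, 1 week, *in vitro* and 1 day, and adult differed from 3 weeks and 1 week from *in vitro*, while 3 weeks with 1 week and *in vitro* with 1 day were not separated. For *Cstb* it was *in vitro*, 1 day, 3 weeks, 1 week and adult, with steps after 1 day and before adult. *Ctsb* ran from *in vitro* and 3 weeks, which were not separated, through 1 day and 1 week, also not separated, to adult. *Ctsd* ran from 3 weeks through *in vitro*, adult and 1 week, which were not separated, to 1 day. *Ctsl* had 3 weeks, 1 day and 1 week above adult and *in vitro*, with the only step between 1 week and adult. In *Ctsz* only the step below 3 weeks was called. No neighbours differed for *Ctsc* (1 day, *in vitro*, 1 week, adult, 3 weeks) or for *Lgmn* (adult, 3 weeks, 1 week, 1 day, *in vitro*).

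The balance of protease to inhibitor transcripts within a library does not depend on scaling. The 8 proteases together took 3.76% and 3.73% of all UMIs in adult, 2.18% and 2.01% at 1 day, 2.51% and 3.05% at 1 week, 5.92% and 4.67% at 3 weeks and 2.61% and 2.72% *in vitro*. *Cst3* and *Cstb* together took 6.99% and 6.03% in adult, 0.459% and 0.296% at 1 day, 0.543% and 0.698% at 1 week, 1.11% and 0.974% at 3 weeks and 0.435% and 0.415% *in vitro*. Adult libraries were far above all others in inhibitors and lay between the 3-week libraries and the rest in proteases. The ratio of protease to inhibitor UMIs was 0.537 and 0.618 in adult, 4.74 and 6.79 at 1 day, 4.62 and 4.37 at 1 week, 5.33 and 4.80 at 3 weeks and 6.00 and 6.56 *in vitro*. All 8 cultured libraries were above 4 and both adult libraries below 1. The difference in the ratio was not tested, and since *Cst3* alone took 6.98% and 6.02% of adult UMIs, the ratio in adult follows that gene. Captured UMIs depend on each transcript, so the ratio compares libraries and is no ratio of molecules. The protease sum includes *Ctsd*, which cystatins do not target. The inhibitor sum leaves out *Cst7*, which was above *Cstb* at 3 weeks. The ratio is therefore no measure of cystatin targets against all their inhibitors.

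**Figure D3:**
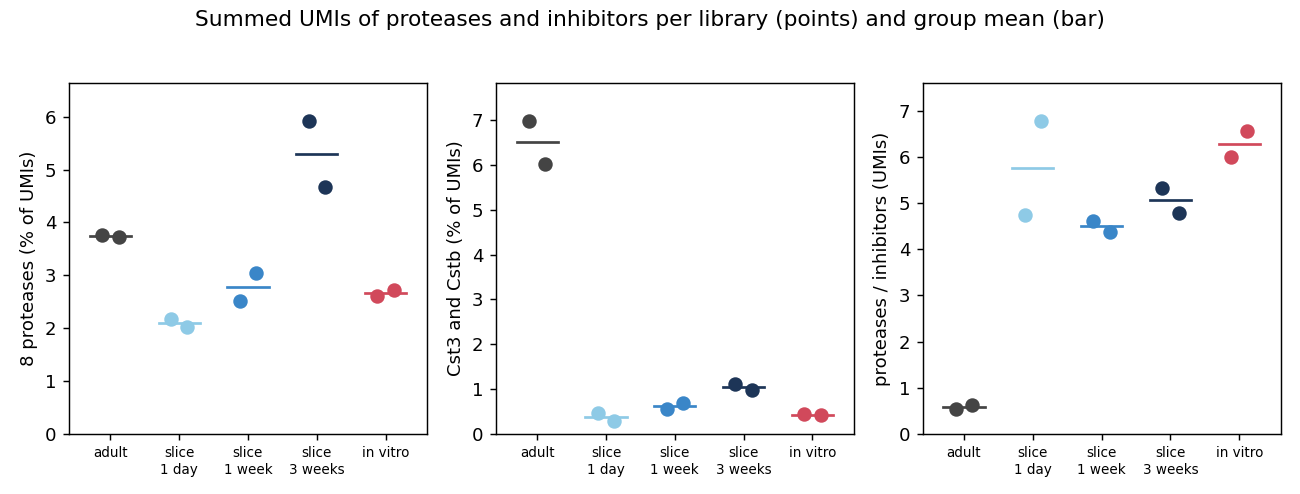
Left, UMIs of the 8 proteases and, middle, of *Cst3* and *Cstb*, each as a percentage of all UMIs of a library; right, the ratio of both. Points are libraries and bars group means (n = 2). The adult ratios are 0.537 and 0.618 and the cultured ones lie between 4.37 and 6.79.

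The spread among cells was read after each cell was thinned to 1800 UMIs, which left 16910 cells and dropped 2149 shallower ones, 1618 of them in adult replicate 2. The median cell held 120 and 110 *Cst3* UMIs in the adult libraries, 3 and 3 at 1 day, 7 and 10.5 at 1 week, 18 and 15 at 3 weeks and 6 and 5 *in vitro*. The 10th to 90th percentiles were 85 to 167 in adult replicate 1 and 7 to 33 in slice 3 weeks replicate 1, so the bulk of cells in these libraries did not overlap. More inhibitor than protease UMIs was the rule in adult, where only 3.19% and 6.08% of cells held more protease UMIs, and the exception elsewhere, where 96.5% to 100% of cells did. *Ctsd* had medians of 40 and 29 in slices after 3 weeks, with 10th to 90th percentiles of 19 to 78 and 11 to 58. These percentiles were 12 to 29 and 10 to 24 in adult, 1 to 18.9 and 1 to 12 at 1 day and 3 to 28.2 and 2 to 27.9 at 1 week. The variance over the mean was highest in slice 1 week replicate 2 (18.9), against 13.9 in slice 3 weeks replicate 1. A *Cstb* UMI was found in 24.8% and 26.6% of thinned adult cells, 75.6% and 77.3% at 1 day, 40.3% and 46.2% at 1 week, 55.6% and 46.1% at 3 weeks and 77.9% and 82.2% *in vitro*. Before thinning these shares were 38.1% and 26.5%, 91.1% and 97.4%, 79.1% and 78.7%, 84.0% and 75.4%, and 99.5% and 99.7%, and the exact 95% binomial interval of adult replicate 1, 36.5% to 39.7%, covers counting error only. Within libraries, the thinned UMI counts of 2 genes were correlated over cells (Pearson, no log taken). The highest median over the 10 libraries was that of *Ctsb* with *Ctsd* (0.48, range 0.27 to 0.76). The correlation ranged from 0.28 to 0.82 for *Ctss* with *Cst3*, with a median of 0.37, and was −0.23 to 0.00 for *Cst3* with *Cstb*. The value of 0.82 was that of slice 1 day replicate 1, where 2 of 492 thinned cells held *Cst3* at adult levels. In slice 1 day replicate 2 it was 0.40. Cells of a library share its free RNA and depth, so these are descriptions.

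**Figure D4:**
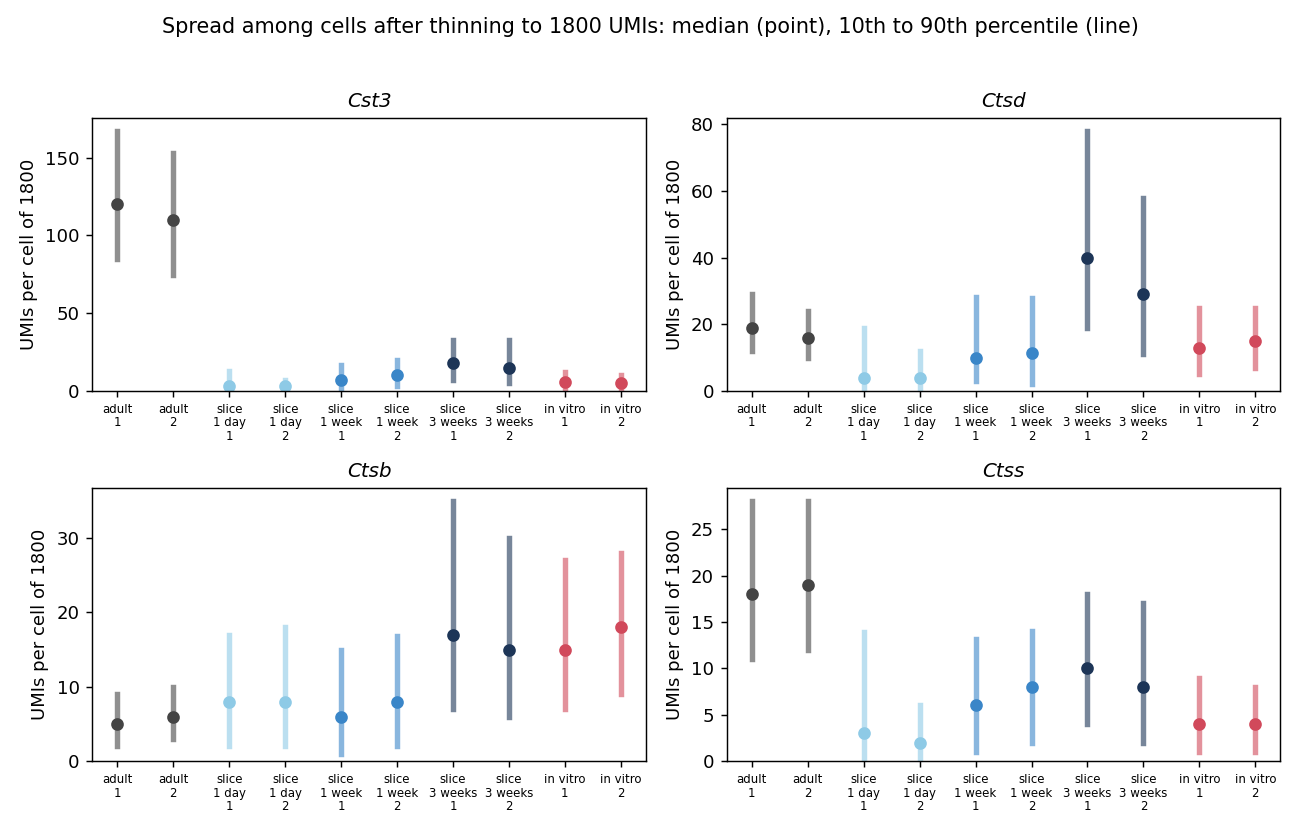
UMIs of *Cst3*, *Ctsd*, *Ctsb* and *Ctss* per cell after thinning each cell to 1800 UMIs. Points are medians and lines run from the 10th to the 90th percentile of the cells of each library. The *Cst3* lines of adult lie above those of all cultured libraries, and *Ctsd* has its highest medians, 40 and 29, in slices after 3 weeks.

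Neutrophil transcripts were highest in the 1-day and 1-week groups. The summed level of 5 monocyte markers was 147 to 178 CPM at 1 day and 151 CPM in slice 1 week replicate 1, while all 5 were at 0 in slice 1 week replicate 2, and it was at most 7.18 CPM in the other groups. The cells rich in these transcripts were therefore set beside the others. Cells with over 2% of UMIs from these markers numbered 67 of 518 (12.9%) and 110 of 1014 (10.8%) at 1 day and 24 of 148 (16.2%) and 1 of 61 at 1 week, and 0 in the other groups. In the 3 libraries with more than 1 such cell they held less of each of the 7 tested proteases than the other cells. *Lgmn*, for example, was 347 against 3377 CPM, 588 against 3486 and 643 against 4712, and *Ctsb* 1199.7 against 5234, 1165 against 5552 and 826 against 4750. *Cst3* was 1364 against 3564 CPM, 668 against 2021 and 1300.3 against 5641. *Cstb* did not share this in slice 1 day replicate 1, where it was 1135 against 1125 CPM, and was 530.2 against 1094 and 183 against 414 in the other libraries. The share of thinned cells with a *Cstb* UMI was 75.5% in the rich cells and 75.6% in the others of slice 1 day replicate 1, 53.6% and 80.2% in replicate 2, and 16.7% and 45.2% in slice 1 week replicate 1. The median depth of rich cells was 2247, 4925 and 4490.5 UMIs, against 6955, 8868 and 7292 in the other cells. Without these cells the counts of called genes in the 6 main comparisons were 8 at 1 day, 6 at 1 week, 7 at 3 weeks and 5 *in vitro* against adult, and 8 in both other comparisons, the same as with them. Leaving out every cell with 2 or more marker UMIs was stricter. It removes slice 1 day replicate 2 and slice 1 week replicate 1 whole and 447 of the 518 cells of slice 1 day replicate 1. With 1 library left in each of these groups, the spread comes from the other groups and no call is read. At 1 week the log2 differences from adult were then 1.16 for *Ctsl*, −0.88 for *Ctss* and −0.49 for *Lgmn*, against 1.10, −0.98 and −0.68 with all cells.

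**Figure D5:**
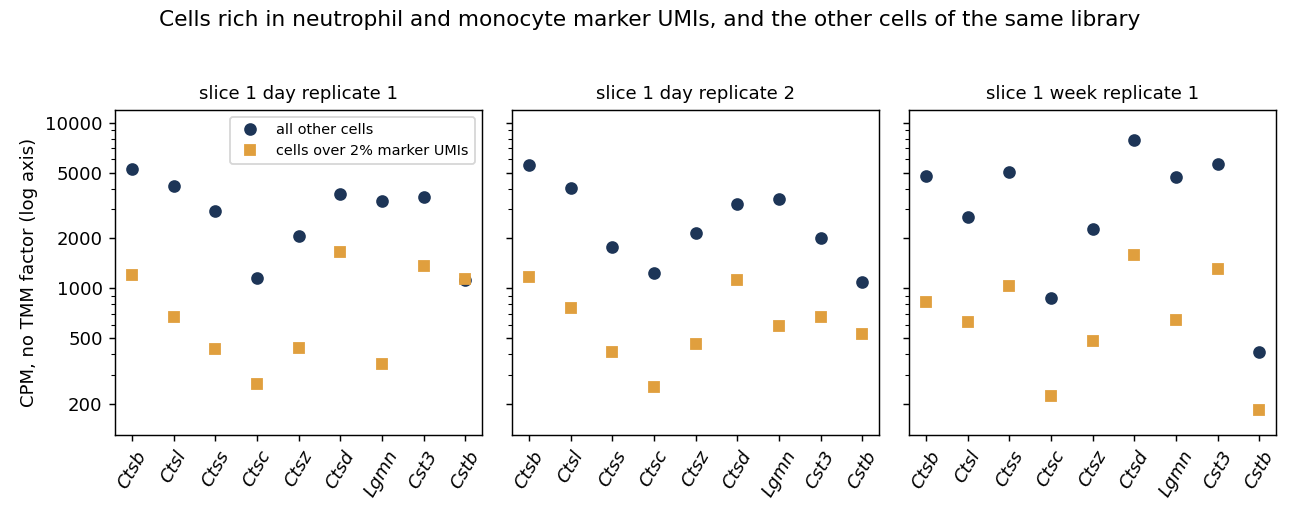
Level of the 9 tested genes (CPM without TMM factor, log axis) in cells with over 2% neutrophil and monocyte marker UMIs (squares) and in all other cells (circles) of slice 1 day replicates 1 and 2 and slice 1 week replicate 1. Squares lie below circles for every gene but *Cstb* in slice 1 day replicate 1, where it was 1135 against 1125 CPM.

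The remaining cathepsins were those of the list of *Ctsa*, *Ctse*, *Ctsf*, *Ctsg*, *Ctsh*, *Ctso* and *Ctsw*, of which 6 were tested. Against adult, 1 was called higher and 3 lower at 1 day, 2 and 2 at 1 week, 3 and 2 at 3 weeks and 0 and 4 *in vitro*, where 50.2%, 28.6%, 35.4% and 50.8% of all genes were called. With 6 genes, 4 calls at 1 day and *in vitro* are near that background. Their median log2 changes were −1.91, −0.09, 0.28 and −1.37. Without *Ctsw* at 1 day and *in vitro*, where it had 3 or fewer counts in both groups, they were −1.71 and −1.30. *Ctsf*, a cysteine cathepsin, was 310.3 and 281 CPM in adult, 48.5 and 35.1 at 1 day, 154 and 141 at 1 week, 170.4 and 178 at 3 weeks and 30.2 and 28.0 *in vitro*. It was lower than in adult in the 4 cultured groups, by 2.84 on the log2 scale at 1 day (edgeR adjusted *p* = 1.61e-06) and, *in vitro*, fell by 3.35 (adjusted *p* = 2.21e-07). *Ctso* fell by 2.10 at 1 day, 2.23 at 1 week, 1.06 at 3 weeks and 1.44 *in vitro*. *Ctsa*, the serine carboxypeptidase that protects lysosomal beta-galactosidase and neuraminidase, rose by 1.19 at 3 weeks (edgeR adjusted *p* = 0.000202) and its difference *in vitro* from 3 weeks was −1.49 (adjusted *p* = 5.29e-05). From 1 day to 3 weeks 5 of these 6 rose and 0 fell, where 26.7% of all genes were called (13.9% higher and 12.8% lower). The largest rises among those of sufficient level were *Ctsf* (2.07) and *Ctsa* (1.73). *Ctsh* fell at 1 day (−1.71) and *in vitro* (−1.30), and the counts also hold *Ctse* and *Ctsw*, whose levels were at most 15.4 and 3.95 CPM. These 3 genes were named after their values were seen.

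Of the other cystatins and stefins 8 of 9 were tested. *Cst7*, cystatin F, an inhibitor of cathepsins in the endolysosomes of immune cells, was 21.9 and 14.3 CPM in adult, 27.5 and 28.3 at 1 day, 42.5 and 81.9 at 1 week, 917 and 1669 at 3 weeks and 7.68 and 7.24 *in vitro*. The 3-week libraries stood above all others. *Cst7* rose by 1.67 on the log2 scale at 1 week and by 6.15 at 3 weeks (edgeR adjusted *p* = 2.71e-06) and *in vitro* its log2 difference was −1.29 from adult (adjusted *p* = 0.00622) and −7.44 from 3 weeks (adjusted *p* = 9.11e-07). The 7 tested stefin genes had 0 UMIs in adult. Against the floor of 3 counts over the adult libraries they were at least 119.9-fold higher (*BC117090*) to at least 17673-fold higher (*BC100530*) at 1 day, and *Stfa1* was at least 15536-fold higher. They are near-identical copies whose reads can be split between them, and their levels went with the neutrophil markers given above. With the stefins at their bounds the median log2 change of the list was 11.49 at 1 day and 11.72 at 1 week. Nearly all UMIs of these 7 genes were in the 1-day and 1-week groups, through which they passed the filter on low counts. Their calls in comparisons of these groups, and the list medians, were thus set in advance and are not 7 separate results. In all, 7 were called higher at 1 day, 8 at 1 week with *Cst7*, and 1 at 3 weeks, and from 1 day to 3 weeks 7 fell and 1 rose. *In vitro* 1 was lower than in adult. The shares of all genes called were 50.2% at 1 day, 28.6% at 1 week, 35.4% at 3 weeks and 50.8% *in vitro*, and 26.7% from 1 day to 3 weeks. Without the cells rich in neutrophil and monocyte markers 6 were called higher at 1 day, 7 at 1 week, and 6 fell from 1 day to 3 weeks.

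Other lysosomal peptidases and the delivery system were mixed. Of 6 peptidases, 1 rose and 4 fell at 1 day, 2 rose and 0 fell at 1 week, 2 rose and 1 fell at 3 weeks and 4 rose and 1 fell *in vitro*, where 50.2%, 28.6%, 35.4% and 50.8% of all genes were called. *Scpep1*, a serine carboxypeptidase, rose by 1.36 on the log2 scale at 3 weeks (edgeR adjusted *p* = 0.000147), and *Dpp7*, a dipeptidyl peptidase, by 0.61 (adjusted *p* = 0.0273). *Tpp1*, the tripeptidyl peptidase lost in a neuronal ceroid lipofuscinosis, fell by 1.13 at 1 day (adjusted *p* = 0.000185). The carboxypeptidase *Cpq* fell by 1.91 at 1 day and rose by 1.46 *in vitro*, and *Prcp* fell by 0.69 *in vitro*. *Napsa*, an aspartic protease, had 0 UMIs in adult and was at least 239-fold higher at 1 day, 163-fold at 1 week and 8.98-fold *in vitro*, although slice 1 week replicate 2 had 0 as well. Medians of the 6, the same at 1 day, 1 week and *in vitro* with *Napsa* at its bound, were −0.82, 0.22, 0.04 and 1.20 in the order 1 day, 1 week, 3 weeks and *in vitro*. From 1 day to 3 weeks 4 rose and 1 fell, led by *Dpp7* (1.37) and *Scpep1* (1.23), where 26.7% of all genes were called. *In vitro* 2 were higher than at 3 weeks, *Napsa* and *Cpq* (2.16), where 33.2% of all genes were called (13.3% higher).

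Of 9 genes for the mannose 6-phosphate tag, the sorting receptors and the transcription factors of lysosomal genes, 2 rose and 4 fell at 1 day, 1 and 3 at 1 week, 2 and 1 at 3 weeks and 3 and 4 *in vitro*. Set against the same shares of all genes (50.2%, 28.6%, 35.4% and 50.8%), the 3 calls of 9 at 3 weeks are about the background. *Gnptab*, a subunit of the enzyme that starts the mannose 6-phosphate tag, rose by 1.39, 1.74, 1.65 and 1.40 on the log2 scale in these groups. *Tfe3*, a transcription factor that binds the E-box shown above, fell by 1.11 at 1 day (edgeR adjusted *p* = 0.000245), 0.75 at 1 week, 0.86 at 3 weeks and 1.09 *in vitro*. The sorting receptor *Sort1* fell by 1.87 at 1 day, 0.90 at 1 week and 1.52 *in vitro* and rose by 1.63 from 1 day to 3 weeks (adjusted *p* = 0.000416). *Igf2r*, a mannose 6-phosphate receptor, had 0 UMIs in adult and was at least 77.6-fold higher at 1 day, 27.6-fold at 3 weeks and 41.1-fold *in vitro*. From 1 day to 3 weeks 3 of the 9 rose, *Gnptg* among them by 0.75, and *Igf2r* fell by 1.49, where 26.7% of all genes were called. *In vitro* 0 were higher and 3 lower than at 3 weeks, led by *Sort1* (−1.29) and *Gnptg* (−0.74). There 33.2% of all genes were called, so 3 of 9 is about the background. Medians were −0.49, −0.33, 0.04 and −0.48 against adult, and −0.38 at 1 week without *Igf2r*, which had 3 or fewer counts in both groups.

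Genes with the most similar pattern over the 10 libraries were taken from 3908 genes of sufficient level by Pearson correlation of log2(CPM + 1), and only describe 5 groups of 2. For *Ctsd* they were *Glmp*, a lysosomal membrane glycoprotein (0.98), and *Plbd2* (0.95), and for *Ctsz* the endocytic receptor *Lrp1* (0.97) and *Ctsa* (0.95). For *Lgmn* they were *Nrm* (0.99) and the microglial purinergic receptor *P2ry13* (0.98), for *Ctss* *Susd3* and *Ptgs1* (both 0.97), for *Cst3* *Ivns1abp* and *Snn* (both 0.99) and for *Cstb* *Bax* and *Glrx2* (both 0.99). For *Ctsb* they were *Smc1a* and *Dpm3* (both 0.96), for *Ctsc* *Nono* and *Il4ra* (both 0.96) and for *Ctsl* *Atxn10* (0.96) and *Slc16a3* (0.94). Among the 9 genes themselves *Ctss* went with *Cst3* (0.95) and *Lgmn* (0.90), *Ctsd* with *Ctsz* (0.78) and *Cstb* against *Ctss* (−0.92) and *Lgmn* (−0.89).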

How the data were processed

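The deposited tables, 1 per library, hold whole UMI counts by gene and barcode with no normalization by the authors, and the submitters' processing notes name Cell Ranger 1.3.0 and mm10. A gene without a row in a table was taken as 0, and 51 repeated rows were summed. Of 19637 barcodes, 578 were removed for more than 5% mitochondrial transcripts, fewer than 400 genes or more than 30000 UMIs. Counts were summed per library and fitted with edgeR 4.0.16 in R 4.3.3 (glmQLFit, TMM, filterByExpr with a minimum of 10 counts, 1 model of 5 groups, biological coefficient of variation 18.3%), with Benjamini-Hochberg adjustment over 12157 genes. DESeq2 1.42.0 was an alternative. Tested on simulated data for slice 3 weeks against adult with 12157 genes, 47% of 2-fold and 90% of 4-fold changes were called. Errors are SDs over 2 libraries. The study calls the samples of a group independent, but the labels do not say that they came from separate animals or cultures, so *p*-values measure the spread between libraries, which may be partly technical. Per-cell values, intervals and floors of 3 counts cover counting error only. Cells were thinned to 1800 UMIs. No doublet caller was run. Positions are from GENCODE M21 (GRCm38), promoters from RefSeq (GRCm38.p6).

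The genes and lists were chosen with earlier results of these data known. Named were all 10 genes, up to 2 rises and 2 falls per list and comparison among calls with mean log2 CPM of 2 or more, and the 2 genes most like each tested one, among those with mean log2 CPM of 5 or more. Alternatives were other scalings, filters, cell selections, sample selections and covariates, and leaving out each library.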

Additional observations from a re-analysis of the deposited data

Results flagged for a closer look

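*Ctsd* moved in opposite directions against adult in slices of different culture time. It was 2.83-fold lower at 1 day and 2.49-fold higher at 3 weeks, and the difference of 2.82 on the log2 scale between these times was tested in the same edgeR fit (adjusted *p* = 5.78e-05). The adult libraries cancel in that difference. The opposite directions hold relative to the other genes of a library: in UMIs per cell the difference at 1 day was −0.0052 and not called, and that of 3 weeks from 1 day was 2.40. Both 3-week libraries, 25962 and 19599.9 CPM, were above both 1-day libraries, 3448 and 3002 CPM. Without the cells rich in neutrophil and monocyte markers the difference was 2.78. The median *Ctsd* count of a cell thinned to 1800 UMIs was 4 in each 1-day library and 40 and 29 in the 3-week libraries.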

How the results depend on the processing

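Apart from UMIs per cell, no called change of a gene turned sign under any alternative, and of the fold changes of the 9 genes under the remaining alternatives, leaving out a library aside, 716 kept direction and call, 14 gained a call, 14 lost one and 12 turned sign. The alternative without cells of over 2% marker UMIs, those for the other gene lists and the crossed block were added after the data were seen. Leaving out all cells with 2 or more neutrophil or monocyte marker UMIs removes slice 1 day replicate 2 and slice 1 week replicate 1 whole. It leaves 1 library in each of these groups, so only log2 differences are given for it and no counts of calls. In UMIs per cell 4 genes were called *in vitro* against 3 weeks and 4 at 3 weeks against 1 day. With library size alone 1 of the other lysosomal peptidases was called at 1 week. At 1000 UMIs per cell a *Cstb* UMI was found in 14.8% of adult cells, 59.7% at 1 day, 37.9% at 1 week, 35.1% at 3 weeks and 61.3% *in vitro*. Leaving out 1 library gave 5 to 6 called genes *in vitro*, 7 to 8 at 1 day, 4 to 6 at 1 week and 6 to 8 at 3 weeks against adult, 7 to 9 *in vitro* against 3 weeks, 6 to 8 at 3 weeks against 1 day, and 8 to 14 neighbouring pairs. The lowest counts came without slice 1 week replicate 1 (1 week, neighbours), adult replicate 1 or slice 3 weeks replicate 2 (3 weeks) and slice 1 day replicate 2 (3 weeks against 1 day). With the replicate number as a block the counts were 5, 8, 6, 7, 8 and 8 and 12 neighbouring pairs, which changed no count, and deviations of same-numbered libraries correlated at −0.13 to 0.12, so the numbers were not read as pairs. With crossed numbers in a fit of 3 weeks and 1 day alone, where the correlation was lowest, 7 genes were called. The block counts above come from a fit of 5 groups, so this count does not compare with them directly.

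Signs that turned in UMIs per cell, on the log2 scale, were *in vitro* *Ctsl* 1.94, *Ctss* 0.27, *Ctsz* 1.79 and *Lgmn* 0.52, at 1 day *Ctsz* 1.26 and *Lgmn* 0.33, at 1 week *Ctsd* 1.03, *Ctss* 0.21, *Ctsz* 1.16 and *Lgmn* 0.54, at 3 weeks *Ctsc* 0.99, *Ctss* 0.27 and *Lgmn* 0.72, *in vitro* against 3 weeks *Ctss* 0.0024, and at 3 weeks against 1 day *Ctsl* −0.14. Relative to the median of all genes there, each of these but *Ctsz* at 1 week had the sign of the main result. The other turned signs were of differences not called: *Ctsd* *in vitro* −0.23 and *Ctsb* *in vitro* against 3 weeks −0.0507 with library size alone, *Ctsl* *in vitro* 0.0608 and *Ctsd* at 1 week 0.0291 with TST11247 libraries only and 0.0254 and 0.0619 with the study label as covariate, *Ctsd* at 1 week 0.19 and *Ctsz* at 1 week 0.17 without cells of 2 or more marker UMIs, and *Ctsz* at 1 week 0.0178 with DESeq2 size factors, 0.0122 with DESeq2, 0.0024 without cells of over 2% marker UMIs and 0.0245 with only the 2 groups compared. Leaving out a library turned *Ctsd* *in vitro* (−0.0756 to 0.33), *Ctsl* *in vitro* (−0.40 to 0.16), *Ctsd* at 1 week (−0.32 to 0.0796), *Ctsz* at 1 week (−0.18 to 0.089) and *Ctsc* at 3 weeks (−0.43 to 0.14). The cause was not tested. Depth limits the 1-week group, whose smaller library held 61 cells. The larger one, slice 1 week replicate 1, held 148 cells, and all 148 had 2 or more neutrophil or monocyte marker UMIs. Leaving out cells of over 2% marker UMIs removed 24 of them. Whether the other cells of that library are all microglia was not tested. The study lists fewer cells for this group and describes a removal of outlying cells, which was not repeated here.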

Other observations

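A few cultured cells held *Cst3* at the level of adult cells. With 66 of 1800 UMIs as the lower limit, the smaller of the 5th percentiles of both adult libraries, 2 of 492 thinned cells of slice 1 day replicate 1 and 19 of 3689 (0.515%) of slice 3 weeks replicate 2 reached it, and 0 cells of the other cultured libraries. Their median *Ctss* count was 45 and 16 UMIs, against 3 and 8 in the other cells of these libraries. The variance of *Cst3* over its mean was 26.1 among the cells of slice 1 day replicate 1 and 3.33 in replicate 2.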
